A study of Mus musculus with 8 samples.

Results

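Metallothioneins and the genes that set zinc flux were followed in hearts with a knockout of mtSSB, the mitochondrial single-stranded DNA binding protein encoded by Ssbp1. The set holds 5 of the 55383 genes in the deposited table and was taken by name: the metallothioneins Mt1 and Mt2, their transcription factor Mtf1, the zinc exporter Slc30a1 and the zinc importer Slc39a14. Whole hearts, taken at an age of 5 weeks from mice of the inbred strain C57BL/6N, were compared as 2 knockouts (Ssbp1-/- in the labels) and 2 controls (Ssbp1+/+ in the labels). In the study's mouse model both alleles of Ssbp1 carry loxP sites in knockouts and controls alike (L/L, cre and L/L), and only the knockouts carry Cre recombinase, driven by the Ckmm promoter; the labels do not say which of these mice carried it. This promoter is active in cardiomyocytes and skeletal muscle, so that fibroblasts, vessels and blood cells of a knockout heart still hold the gene. The labels of 2 further mice, numbered 585H and 586H, name one genotype in the title and the other in the genotype field, and neither mouse was placed in a group.

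Values are normalized counts, which are reads per gene divided by 1 scaling factor for each library. The libraries held 25558246 and 25682093 reads in the knockouts and 24067849 and 19716305 reads in the controls, of which 6568812 to 11259234 fell on nuclear genes. The normalized count of Ssbp1 itself was 170 and 163 in knockout replicates 1 and 2, against 177 and 216 in control replicates 1 and 2 (log2 fold change -0.23, standard error, SE, 0.16, limma adjusted p = 0.890). The count takes in exons outside the deletion and cells without Cre, and the difference did not pass the test, so it is no check of the labels. Cardiomyocyte markers were abundant in every heart, with a summed normalized count of 557373 and 538182 in the knockouts and 562536 and 526471 in the controls. All 6 of them were tested and none was called. The 5 fibroblast markers summed to less in the knockouts, at 6584 and 6944, against 8186 and 7737 in the controls, and 4 of the 5 had negative log2 fold changes. The 5 macrophage markers summed to 1774 and 1822 in the knockouts, against 2461 and 1609.9 in the controls, and the groups overlapped. Of these 5 markers 3 had negative and 2 had positive log2 fold changes. The smallest p was that of Cd68, with 39.5 and 35.2 normalized counts in the knockouts, against 81.1 and 57.9 in the controls (log2 fold change -0.86, limma unadjusted p = 0.020, adjusted p = 0.754). The sums of 5 endothelial markers (9275 and 10112 in the knockouts, 9724 and 8948 in the controls) and of 5 smooth muscle and pericyte markers (11347.5 and 13785 in the knockouts, 13796 and 12439 in the controls) overlapped between the groups. No marker of these lists was called. None of 5 adipocyte markers (sums of 2.47 and 1.53 in the knockouts, 0.977 and 6.74 in the controls) and 5 neutrophil markers (7.41 and 29.1 in the knockouts, 8.80 and 6.74 in the controls) reached the level needed for a test, and Lep and Ly6g were at 0 in all 4 hearts. The 5 red cell markers were highest in knockout replicate 2, with a summed normalized count of 14926 and 41866 in the knockouts and 18944 and 14398 in the controls. The part of these cell types in the results below was not tested. In RNA of a whole organ, fewer cells of a type and less RNA per cell cannot be told apart.

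Metallothioneins are small, cysteine-rich proteins that hold zinc and copper in clusters of thiolates and buffer the free metal of the cell. MTF1 is a zinc finger protein that senses a rise in free zinc, enters the nucleus and binds short sequences called metal response elements in the promoters of Mt1, Mt2 and Slc30a1. The product of Slc30a1, ZnT1, then carries zinc out across the plasma membrane. The product of Slc39a14, ZIP14, works in the opposite direction and brings zinc, manganese and iron not bound to transferrin into the cell. In mouse liver Slc39a14 is induced by IL-6 during inflammation. Mt1 and Mt2 also respond to glucocorticoids and to oxidative stress.

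Promoter sequence of Mt1, Mt2 and Slc30a1 was searched for metal response elements. The 250 bases before the RefSeq start of each gene are shown (build GRCm38.p6, forward strand). Matches to a metal response element, searched on both strands as TGCGCNC or TGCACNC, are in capitals.
Mt1, chr8:94178839-94179088: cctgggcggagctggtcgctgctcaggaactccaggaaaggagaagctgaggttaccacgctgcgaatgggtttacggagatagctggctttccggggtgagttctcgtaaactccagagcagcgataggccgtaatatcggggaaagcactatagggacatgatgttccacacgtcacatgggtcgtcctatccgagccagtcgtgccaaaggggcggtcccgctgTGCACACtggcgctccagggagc
Mt2, chr8:94172368-94172617: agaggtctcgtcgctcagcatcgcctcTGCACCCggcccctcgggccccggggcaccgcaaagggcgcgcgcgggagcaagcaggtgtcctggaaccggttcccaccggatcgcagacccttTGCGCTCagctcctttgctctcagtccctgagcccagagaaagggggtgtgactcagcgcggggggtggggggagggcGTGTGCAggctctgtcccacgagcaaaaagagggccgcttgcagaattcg
Slc30a1, chr1:191906531-191906780: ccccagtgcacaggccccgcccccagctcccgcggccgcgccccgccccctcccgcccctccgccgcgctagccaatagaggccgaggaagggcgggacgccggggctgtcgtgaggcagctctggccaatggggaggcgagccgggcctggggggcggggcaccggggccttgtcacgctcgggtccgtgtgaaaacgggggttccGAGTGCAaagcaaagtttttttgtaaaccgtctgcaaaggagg

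In the window of 300 bases that also takes in the first 50 bases after the start, Mt2 held 4 matches, Mt1 held 3 and Slc30a1 held 2. Among all 32851 promoter windows of RefSeq, 25.7% held at least 1 match, 1.97% at least 3 and 0.517% at least 4. In Mt1 the matches began 23 bases before the start and 3 and 21 bases after it, and the last of these lie in the stretch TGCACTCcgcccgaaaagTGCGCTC (chr8:94179091-94179115). GENCODE gives Mt1 further transcripts that start at 94179211 and 94179241 of chromosome 8, downstream of all 3 matches. In Mt2 the matches began 223, 128 and 50 bases before the RefSeq start and 5 bases after it. The GENCODE transcripts of Mt2, which start at 94172664 and 94172860, likewise begin downstream of all 4. The windows follow the RefSeq starts alone, so the counts of matches depend on that choice. An antioxidant response element, searched as TGACNNNGC and held by 12.4% of all windows, was found once in Mt2 and once in Slc30a1, and in neither did it overlap a metal response element. The window of Mtf1 held none of the motifs searched, which also included the E-box CACGTG (7.15% of windows) and TGATGNAA, a C/EBP and ATF element (3.97% of windows). Of the 5 genes, 4 were matched in the RefSeq promoter table.

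None of the 5 genes rose or fell in the knockout hearts at an adjusted p under 0.05 in limma, a linear model on log2(normalized count + 1) with p-values adjusted over the 14522 genes tested. All 5 passed the filter of at least 10 normalized counts in at least 2 of the 4 libraries. Of all genes tested, 0.117% were called in either direction (0.0757% higher and 0.0413% lower), so that a count of 0 among 5 is near the background. At an unadjusted p under 0.05 limma also gave 0 of the 5 (6.11% of all genes), and edgeR and DESeq2 on the recovered reads called 0. The 5 log2 fold changes ran from -0.31 to 0.22 with a median of -0.15, beside a median of 0.0024 over all genes tested. Since a missed threshold does not show equality, the 95% interval of each difference is given below.

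Mt1 (ENSMUSG00000031765.8, chromosome 8, 94179082 to 94180327, forward strand in GRCm38) had 395 and 392 normalized counts in knockout replicates 1 and 2, against 360 and 442 in control replicates 1 and 2. Both knockouts lie between the controls. Mean and SD were 394 ± 1.51 for the 2 knockouts and 401 ± 58.1 for the 2 controls. The log2 fold change was -0.02 (SE 0.14, limma adjusted p = 0.989). On the fold scale this is 0.987, with a 95% interval of 0.780 to 1.25. A rise of Mt1 by more than the upper bound is outside this interval. The controls were further apart than the knockouts, and the sign turned to 0.13 without control replicate 2 (limma adjusted p = 0.871).

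Mt2 (ENSMUSG00000031762.7, chromosome 8, 94172664 to 94173568, forward strand), whose product binds metal in the same way as that of Mt1, was much less abundant. It had 28.0 and 30.6 normalized counts in the knockouts, against 33.2 and 40.4 in the controls. Both knockouts were below both controls, as they were for the summed fibroblast markers. Over all genes tested, 17.5% were lower in this sense, in each knockout than in both controls, and 18.1% were higher. The log2 fold change of -0.31 (SE 0.31, limma adjusted p = 0.917) gives a fold of 0.804, with a 95% interval of 0.481 to 1.34. Only 34 and 40 reads of the knockout libraries and 34 and 30 reads of the control libraries lie behind these values. Limma draws each SE towards that of genes of similar level. Without this trend the SE of Mt2 was 0.16 (limma adjusted p = 0.849), and the difference passed the test in neither fit.

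The metallothionein genes lie next to each other on chromosome 8, in the order Mt4, Mt3, Mt2 and Mt1. Mt3, best known from brain, had 1.65 and 0.765 normalized counts in the knockouts and 1.95 and 4.04 in the controls, and was not tested. Mt4, known from stratified epithelia, was at 0 in all 4 hearts. The longest exact run that the principal transcripts of Mt1 and Mt2 share is 20 bases, and Mt1 and Mt3 share 27 bases. Only a read that lies wholly within such a short run matches both genes exactly. Salmon, which assigns reads to transcripts by their likelihood, could split such a read between them. How many reads did so was not examined.

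Summed over Mt1 and Mt2, the hearts held 422.6 and 423.1 normalized counts in the knockouts, against 392.9 and 482.3 in the controls. Again both knockouts lay between the controls. The log2 sums differed by -0.04, with p = 1 in a two-sided exact permutation test that with 2 hearts against 2 cannot go below 0.333. Within a heart, which removes any scaling between libraries, there were 7.10 and 7.80 normalized counts of Mt2 for every 100 of Mt1 in the knockouts, against 9.24 and 9.15 in the controls. The ratio was lower in both knockouts, and its log2 differed by -0.31, with the smallest p of the same exact test, 0.333.

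Mtf1 (ENSMUSG00000028890.13, chromosome 4, 124802104 to 124849800, forward strand), the sensor that drives metallothionein transcription, had 227 and 273 normalized counts in the knockouts, against 242 and 189 in the controls. The groups overlapped, and the highest value, of knockout replicate 2, and the lowest, of control replicate 2, lay at the ends of the range. Its log2 fold change was 0.22 (SE 0.18, limma adjusted p = 0.904), or 1.16-fold with a 95% interval of 0.854 to 1.58. Without control replicate 1 it was 0.40, and without control replicate 2 it was 0.04, so that its size depended on which control was used. MTF1 is regulated largely by metal binding and nuclear entry, which RNA does not show.

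Of 9 genes reported as MTF1 targets, a list that includes Mt1, Mt2 and Slc30a1, all 9 were tested and none was called higher or lower. Their median log2 fold change was -0.02, beside 0.0024 over all genes. As MTF1 represses Slc39a10, which is in the list, this median is no measure of MTF1 activity. Slc40a1, which encodes the iron exporter ferroportin, had 172 and 158 normalized counts in the knockouts, against 209 and 210 in the controls (log2 fold change -0.35, limma adjusted p = 0.806). Gclc, the catalytic subunit of the first enzyme of glutathione synthesis, had 147 and 152 in the knockouts, against 124 in both controls (log2 fold change 0.27, limma adjusted p = 0.852). Slc39a10, a zinc importer that MTF1 represses, had 217 and 235 in the knockouts, against 227 and 176 in the controls (log2 fold change 0.17, limma adjusted p = 0.920). The values of Slc40a1 and Gclc did not overlap between the groups, and those of Slc39a10 did. Of the 9 genes, 2 were higher and 2 lower in each knockout than in both controls, beside 18.1% and 17.5% of all genes.

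Slc30a1 (ENSMUSG00000037434.7, chromosome 1, 191906767 to 191913247, forward strand), the exporter at the plasma membrane, had 186 and 217 normalized counts in the knockouts, against 204 and 244 in the controls. The groups overlapped. The log2 fold change of -0.15 (SE 0.16, limma adjusted p = 0.926) corresponds to 0.900-fold, with a 95% interval of 0.682 to 1.19. Leaving out control replicate 1 gave -0.28, and leaving out control replicate 2 gave -0.02.

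Slc39a14 (ENSMUSG00000022094.15, chromosome 14, 70303469 to 70351425, reverse strand), the importer of zinc, manganese and iron, had 802 and 733 normalized counts in the knockouts, against 876 and 857 in the controls. Both knockouts were below both controls, as in 17.5% of all genes tested and as in the summed fibroblast markers. Mean and SD were 768 ± 49.1 for the 2 knockouts and 866 ± 13.3 for the 2 controls. Its log2 fold change of -0.18 (SE 0.10, limma adjusted p = 0.848) gives 0.885-fold, with a 95% interval of 0.746 to 1.05. This was the smallest standard error among the 5 genes, and an increase above the upper bound lies outside the interval. Of 9 genes induced through IL-6 and STAT3, the pathway that raises Slc39a14 in liver, 8 were tested and none was called (median log2 fold change -0.14). The gene of smallest p was Junb, a subunit of AP-1, with 135 and 179 normalized counts in the knockouts, against 122 and 67.4 in the controls (limma adjusted p = 0.806). Osmr, the receptor of oncostatin M, had 216 and 228 in the knockouts, against 240.4 and 337 in the controls (limma adjusted p = 0.833). Cebpd, a transcription factor of the acute phase, had 49.4 and 42.1 in the knockouts, against 56.7 and 112 in the controls (limma adjusted p = 0.809). Junb was higher, and Osmr and Cebpd were lower, in each knockout than in both controls. Timp1, an inhibitor of matrix proteases, was lower too, with 8.24 and 13.0 in the knockouts against 19.5 and 20.2 in the controls (limma adjusted p = 0.837). Of the 8 tested, 1 was thus higher and 3 were lower in this sense, beside 18.1% and 17.5% of all genes. For the rest of the list the groups overlapped.

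The remaining zinc transporters were read as families. Of 24 SLC30 and SLC39 genes, Slc30a1 and Slc39a14 included, 16 were tested and 0 were called in either direction by limma, and 0 by edgeR or by DESeq2; none had an unadjusted p under 0.05 in limma. The median log2 fold change was -0.12 among the 6 tested SLC30 genes and -0.08 among the 10 tested SLC39 genes. Slc30a9, whose product sits in mitochondria, had 1116 and 1144 normalized counts in the knockouts, against 1168 and 1328 in the controls (log2 fold change -0.14, limma adjusted p = 0.890, 0.907-fold with a 95% interval of 0.762 to 1.08). Slc30a4, a transporter of vesicles, had 311 and 312 in the knockouts, against 284 and 252 in the controls. The product of Slc30a6 works in the secretory pathway with that of Slc30a5, and Slc30a6 had 68.4 and 55.1 in the knockouts, against 73.3 and 80.8 in the controls (log2 fold change -0.32, limma adjusted p = 0.890). Slc30a4 was higher, and Slc30a6 and Slc30a9 were lower, in each knockout than in both controls, and none of them passed the test. Over all genes tested, 18.1% were higher and 17.5% lower in this sense.

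Among the SLC39 genes, Slc39a7, which releases zinc from the endoplasmic reticulum, had 516 and 479 normalized counts in the knockouts, against 437 and 362 in the controls. Its log2 fold change was 0.32 (SE 0.14, limma adjusted p = 0.806). Slc39a1, an importer of the plasma membrane, had 630 and 611 in the knockouts, against 743 and 705 in the controls, with a log2 fold change of -0.22 (SE 0.10, limma adjusted p = 0.809). These stood on opposite sides, the first higher and the second lower in each knockout than in both controls. Slc39a9 of the Golgi apparatus was also lower in each knockout, with 224 and 207 in the knockouts, against 248 and 260 in the controls (log2 fold change -0.24, limma adjusted p = 0.839). Slc30a2, Slc30a3, Slc30a8, Slc30a10, Slc39a4, Slc39a5, Slc39a8 and Slc39a12 were below the filter and were not tested. Across the tested transporters the widest interval was that of Slc39a2, which reached 3.42-fold and belongs to a gene with 6.74 to 14.8 normalized counts.

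Levels can be compared between genes only per length, and normalized counts were therefore divided by the length of the principal transcript in GENCODE. On this scale Mt1 stood first, at 719 and 715 normalized counts per kb in the knockouts and 655 and 805 in the controls, above 95.9% of the 12679 genes ranked by their control mean. Slc39a14 followed at 163 and 149 per kb in the knockouts and 178 and 174 in the controls, above 81.0% of genes. Mt2 had 54.8 and 59.9 per kb in the knockouts and 65.0 and 79.1 in the controls, so that Mt1 transcripts outnumbered those of its neighbour in every heart. Slc30a1 had 35.5 and 41.3 per kb in the knockouts and 39.0 and 46.5 in the controls. Mtf1 was lowest, at 29.7 and 35.8 per kb in the knockouts and 31.8 and 24.7 in the controls. Slc30a1 and Mtf1 are neighbours in this order whose values overlapped among the knockouts, while Mt1, Slc39a14 and Mt2 stood apart from each other in all 4 hearts. Of the transporters, Slc39a1 with a control mean of 306 per kb and Slc30a9 with 219 were above Slc39a14 in every heart. Slc39a7 had 222 and 206 per kb in the knockouts and 188 and 156 in the controls, which is above Slc39a14 in both knockouts and control replicate 1 and below it in control replicate 2.

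Metallothionein genes also answer to glucocorticoids, and a list of 8 genes known to be induced by these hormones was read in the same hearts. Their summed normalized count was 3256 and 3076 in the knockouts, against 3342 and 5390 in the controls. Among these 4 hearts control replicate 2 stood apart, with 7 of the 8 genes highest in it. It was also the highest of the 4 for Mt1, Mt2 and Slc30a1. For Mtf1 it was the lowest, at 189, and for Slc39a14 it was below control replicate 1 (857 against 876). How many of all genes tested were highest in this heart was not counted. The list was about as high in mouse 585H (5573) and mouse 586H (5133), which have no group. By mouse number, control replicate 2 (584H) goes with these mice, while control replicate 1 and both knockouts are 492H to 494H. Genotype and mouse number are thus partly confounded for these genes, and their parts were not tested. Errfi1, a feedback inhibitor of the EGF receptor, had 261 and 269 in the knockouts, against 359 and 478 in the controls (log2 fold change -0.64, limma adjusted p = 0.655). Zbtb16, a zinc finger repressor, had 266 and 276 in the knockouts, against 373 and 896 in the controls, and Fkbp5, a chaperone of the glucocorticoid receptor, had 52.7 and 54.3 against 67.4 and 125. Tsc22d3, which encodes the leucine zipper protein GILZ, had 526 and 510.3 in the knockouts, against 545 and 808 in the controls. In each of these genes both knockouts were below both controls. These were 4 of the 8, beside 17.5% of all genes tested. The groups overlapped for the rest of the list, and 1 gene of the 8 had a positive log2 fold change. None of the 8 was called by limma (2 at an unadjusted p under 0.05), and their median log2 fold change was -0.54. Without control replicate 1, Zbtb16 was called lower (log2 fold change -1.72, limma adjusted p = 0.024). Without control replicate 2, the log2 fold changes of the metallothioneins were 0.13 for Mt1 and -0.18 for Mt2. The part of this difference between the controls in the values of Mt1, Mt2 and Slc30a1 was not tested.

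Copper, the other metal that metallothioneins hold, was covered by 11 genes, of which 10 were tested and none was called (median log2 fold change 0.0015). Slc31a1, the copper importer of the plasma membrane, had 237 and 236 normalized counts in the knockouts, against 279.5 and 284 in the controls (log2 fold change -0.25, limma adjusted p = 0.815). Ccs, the chaperone that loads copper into superoxide dismutase, had 107 and 94.1 in the knockouts, against 90.9 and 68.7 in the controls (log2 fold change 0.34, limma adjusted p = 0.877). Sod1, its client, had 1140.1 and 1083 in the knockouts, against 993 and 1063 in the controls. Ccs and Sod1 were higher in each knockout than in both controls, and Slc31a1 was lower. Atox1, another copper chaperone, was also lower, with 152 and 144 in the knockouts against 169 and 163 in the controls. Of the 10 genes tested, 3 were higher and 2 lower in this sense, beside 18.1% and 17.5% of all genes.

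Genes of most similar pattern were sought among 10626 tested genes with a mean of at least 50, by the root mean square difference of centred log2 values over the 4 hearts. The nearest to Mt1 were Spcs1 (0.0066), Tmcc2 (0.0089) and Ngrn (0.011), and those to Mt2 were Ube2d1 (0.012), Cpt1a (0.015) and 2610203C22Rik (0.015). Plk2 (0.015), Rrad (0.015) and Myct1 (0.021) were nearest to Mtf1, and Fyn (0.018), Itgb1 (0.018) and Acot9 (0.018) to Slc30a1. For Slc39a14 they were Ehhadh (0.012), Szrd1 (0.016) and Ctbp1 (0.017). None of the 5 genes was among the nearest of another. Mt2 itself was below the mean that the search required, so it could not be listed. With 4 values per gene and 10626 genes searched, patterns this near can arise by chance, which was not tested.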

How the data were processed

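Total RNA of whole hearts was sequenced in strand-specific TruSeq libraries. STAR 2.7.3a was the aligner, with a GRCm38.p6 genome in which nuclear copies of mitochondrial DNA were masked, and Salmon 1.1.0 with tximport gave reads per GENCODE gene. What the authors deposited is a signal, these reads divided by 1 DESeq2 1.26.0 size factor per library. Dividing each deposited value by the smallest nonzero value of its library gave whole reads for 100% of values, within 0.001 reads. Depth sets the precision of low genes such as Mt2. A further deposited file holds the authors' own comparison and was not used.

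Groups follow the labels. The 5 genes and all lists were chosen with earlier results of these data known. Genes with at least 10 in at least 2 of 4 libraries were tested with limma 3.58.1 (R 4.3.3, mean-variance trend) on log2(normalized count + 1), two-sided, with Benjamini-Hochberg adjustment at 0.05. Fold changes on this scale understate those of low genes. The labels number the hearts as biological replicates. The limma p-values rest on the spread between these 4, which limma draws towards the trend over all genes tested. The fits were first run on data simulated with known changes, as a check of the code only. Alternatives covered the pseudocount, filter, scaling, a replicate block, each heart left out, 6 mice by either label, limma without trend or robust, edgeR 4.0.16 and DESeq2 1.42.0. Named were the 5 genes, Ssbp1, of each list the genes called or otherwise up to 4 of smallest p (marker lists are given as sums, with Cd68, Lep and Ly6g named after their values were seen), untested family genes, and the 3 genes of nearest pattern; Slc39a2 and Per1 were named after their values were seen. Positions are from GENCODE vM21, which has the same build; the authors used a later release. Lengths are of the APPRIS principal transcript. Promoters are from RefSeq. Figures used Python 3.11.15 and matplotlib 3.10.9.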

Additional observations from a re-analysis of the deposited data

Results flagged for a closer look

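Signals above both controls were found in the mice with contradictory labels, which enter no comparison above. In mouse 585H the normalized count of Mt1 was 552.6 and that of Mt2 was 76.9, against 359.7 to 441.9 and 33.2 to 40.4 in the 2 controls. Mt1 was 441.9 in mouse 586H, level with the higher control, and Mt2 was 32.5 there, below both controls. Mtf1 had 264.9 in mouse 585H and 272.5 in mouse 586H, against at most 242.4 in a control. Slc30a1 had 254.9 in mouse 586H, against at most 243.8 in a control.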

How the results depend on the processing

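None of the 5 genes was called under any alternative, and the lowest adjusted p among them was 0.549 (Mtf1 without control replicate 1, limma). Of their values under alternatives, 81 kept the direction and 3 turned it: Mt1 to 0.13 without control replicate 2 and to 0.0948 with 6 mice by genotype field, and Mt2 to 0.20 with 6 mice by genotype field. Mt2 could not be tested with at least 50 in 2 libraries. With one heart left out, where the lone heart of a group is assumed to vary like the others, the log2 fold changes ran from -0.17 to 0.13 for Mt1, -0.45 to -0.18 for Mt2, 0.04 to 0.40 for Mtf1, -0.28 to -0.02 for Slc30a1 and -0.24 to -0.11 for Slc39a14. The summed Mt1 and Mt2 turned from -0.04 to 0.11 without control replicate 2 (range with one heart left out -0.19 to 0.11) and to 0.11 with 6 mice by genotype field, and the ratio of Mt2 to Mt1 from -0.31 to 0.10 with 6 mice by genotype field. Over all genes limma called 11 higher and 6 lower. These counts were 17 higher with at least 50 in 2 libraries, 23 higher with a replicate block, 0 and 0 with 6 mice by title, 38 and 13 with 6 mice by genotype field, 6 and 0 without a trend, and 44 and 19 by DESeq2, and ran from 1 to 21 higher and 4 to 12 lower with one heart left out. The glucocorticoid list had 0 to 1 genes called lower with one heart left out. The replicate numbers are shared by number only: replicate differences correlated at 0.314 between the groups over 14522 genes, and with the numbers as a block Mt2 stayed at -0.31 (adjusted p = 0.974 from limma) and no listed gene was called. The cause of these changes was not tested.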

Other observations

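In the mice without a group the genes induced by glucocorticoids were high as well. The list of 8 summed to 5573 normalized counts in mouse 585H and 5133 in mouse 586H, beside 3076 and 3256 in the knockouts and 3342 and 5390 in the controls. Zbtb16 had 1093 in mouse 585H and 1128 in mouse 586H, and Per1, a clock gene that glucocorticoids induce, had 392 and 233. Mt2 came to 13.9 per 100 of Mt1 in mouse 585H and 7.36 in mouse 586H, beside 7.10 to 7.80 in the knockouts and 9.15 to 9.24 in the controls. Slc39a14 had 737 and 746 in mice 585H and 586H, below both controls. By mouse number, the list summed to 3076 to 3342 in hearts 492H to 494H and to 5133 to 5573 in hearts 584H to 586H, control replicate 2 (584H) among them; the labels do not say what the numbers stand for.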
